A study of Mus musculus with 2 samples.

Results

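Basophils in the cultures were taken as the barcodes in which Mcpt8 and Prss34 together made up at least 20 of every 10000 unique molecular identifiers (UMIs), among barcodes with at least 1000 UMIs and at most 10% of them from mitochondrial genes. This rule took 134 of 21035 barcodes, 0.637%, of which 56 came from the DMSO library and 78 from the DAB library. The study asked what dabrafenib (DAB), a BRAF kinase inhibitor, does to myeloid-derived suppressor cells (MDSC) grown from mouse marrow. Marrow came from female C57BL/6 mice aged 10 weeks and was cultured over 4 days in 50 ng/mL GM-CSF plus 50 ng/mL IL-6, with DAB at 1.5 µmol/L in one group and its solvent DMSO in the other. All cells of both groups therefore had both cytokines, and no untreated marrow is compared here. Each condition was 1 scRNA-seq library made with the 10x Genomics 5′ v2 kit, and the sources used here do not give how many mice a library came from.

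With 1 library per condition there is no test of DAB against DMSO: cells of a library are not replicates of a condition, and every interval given here is a 95% interval for counting error only. The basophil barcodes held 490268 UMIs for DMSO and 984864 UMIs for DAB. Their median depth was 7584.5 UMIs for DMSO and 9373.5 UMIs for DAB, against 8340 and 10595 in all other barcodes. Levels are given as UMIs per 1000000 UMIs of the pooled barcodes (CPM), and each UMI is 1 captured 5′ end, so levels were not divided by transcript length.

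Basophils are rare granulocytes of the marrow and blood that carry the high-affinity IgE receptor and store histamine and proteases in granules. In mice, Mcpt8 encodes a protease used as a basophil marker and Prss34 encodes another serine protease made by basophils. Receptor crosslinking by antigen-bound IgE releases the granules and induces IL-4, and GATA2 is a transcription factor required for the lineage.

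The promoters of the genes that mark these cells are shown because the list they belong to includes Gata2, whose product binds GATA sequences. All 10 genes of the basophil list matched RefSeq promoters of build GRCm38.p6, 12 promoters in all, each running from 250 bases before the start site to 50 after it. The motif searched was AGATAA on either strand, which reads TTATCT on the reverse, and it stands in capitals, with all 4 sequences printed 5′ to 3′ on the gene's strand.
Prss34: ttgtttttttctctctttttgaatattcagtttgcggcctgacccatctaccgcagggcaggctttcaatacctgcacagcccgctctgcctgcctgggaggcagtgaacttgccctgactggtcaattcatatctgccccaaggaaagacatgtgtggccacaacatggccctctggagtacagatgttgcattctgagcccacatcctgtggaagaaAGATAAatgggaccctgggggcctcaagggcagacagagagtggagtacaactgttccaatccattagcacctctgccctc
Ms4a2: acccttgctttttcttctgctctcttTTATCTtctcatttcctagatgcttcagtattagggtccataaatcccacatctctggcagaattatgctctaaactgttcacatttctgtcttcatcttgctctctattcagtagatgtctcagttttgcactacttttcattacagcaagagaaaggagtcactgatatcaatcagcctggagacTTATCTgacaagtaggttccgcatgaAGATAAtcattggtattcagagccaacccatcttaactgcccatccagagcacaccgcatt
Cpa3: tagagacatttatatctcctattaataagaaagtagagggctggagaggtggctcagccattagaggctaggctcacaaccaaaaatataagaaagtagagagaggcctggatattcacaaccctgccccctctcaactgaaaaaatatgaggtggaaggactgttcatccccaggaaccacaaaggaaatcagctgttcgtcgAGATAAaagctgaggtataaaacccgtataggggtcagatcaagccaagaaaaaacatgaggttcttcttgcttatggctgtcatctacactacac
Mcpt8: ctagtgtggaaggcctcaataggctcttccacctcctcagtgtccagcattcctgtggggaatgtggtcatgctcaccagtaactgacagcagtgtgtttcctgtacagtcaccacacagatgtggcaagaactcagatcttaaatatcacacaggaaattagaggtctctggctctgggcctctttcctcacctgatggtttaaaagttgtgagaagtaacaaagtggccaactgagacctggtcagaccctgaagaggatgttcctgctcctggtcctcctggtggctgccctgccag
They lie at chr17:25298144-25298443 on the plus strand (Prss34), chr19:11623670-11623969 on the minus strand (Ms4a2), chr3:20242132-20242431 on the minus strand (Cpa3) and chr14:56085148-56085447 on the minus strand (Mcpt8). The letters occur in 6 of the 10 genes, namely Prss34, Cpa3, Ms4a2, Fcer1a, Cd200r3 and Grm6. Among 27025 genes with promoters of this length, 12.7% have them in at least 1 promoter. The Mcpt8 window, like those of Gata2, Hdc and Cyp11a1, does not have these letters, and a match is a description of the sequence and not a binding site.

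The label was checked on genes that the rule did not use. Each of the other 8 basophil list genes had UMIs in members of both libraries, and each was higher in members than in all other barcodes of the same library, by 18.0-fold for Gata2 in DAB, the smallest of these ratios, and by more for the rest. Fcer1a, the IgE-binding chain of the receptor, had 104 CPM (77.5 to 137) in DMSO members and 179 CPM (153 to 207) in DAB members, and 0.00943 CPM and 0.177 CPM in the other barcodes. Ms4a2, the receptor's beta chain, had 273 CPM in DMSO and 302 CPM in DAB members, found in 39 of 56 and 65 of 78 barcodes. Cpa3, the granule carboxypeptidase shared with mast cells, had 581 CPM in DMSO and 1327 CPM in DAB members. The genes of both receptor chains were thus found in the members of each library.

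Hdc, the enzyme that makes histamine, was among the more abundant, with 1666 CPM in DMSO and 1622 CPM in DAB members. Gata2 had 1220 CPM and 781 CPM. Cyp11a1, a steroidogenic enzyme known from basophils and mast cells, had 1624 CPM and 1133 CPM. The surface receptor gene Cd200r3 had 530 CPM and 741 CPM, and the glutamate receptor gene Grm6 had 26.5 CPM and 150 CPM. Because these barcodes were picked on their own RNA, the contrast with other barcodes is a description with no test.

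**Figure D1:**
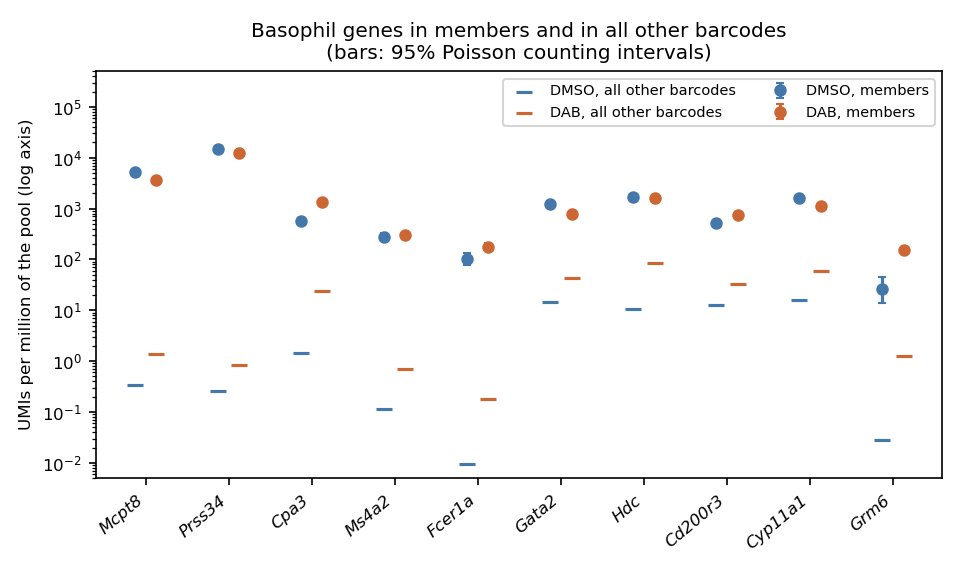
CPM (log axis) for the 10 basophil list genes in members (points, with 95% Poisson counting intervals) and in all other barcodes of the same library (dashes), DMSO in blue and DAB in orange. Every point lies above both dashes of its gene, while the DMSO dash is the lower one in all 10 genes.

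Mast cell genes had few UMIs. Over the 7 mast cell genes the members held 8 UMIs in DMSO (16.3 CPM) and 19 UMIs in DAB (19.3 CPM), with Mitf, a transcription factor gene that other myeloid cells share, giving 6 and 9 of them. Mcpt4, Tpsab1 and Mrgprb2 had no UMI in members of either library, and Kit, the stem cell factor receptor of mast cells, had 0 UMIs in DMSO and 1 UMI in DAB. At these depths a count of 0 allows up to 6.12 CPM in DMSO and 3.05 CPM in DAB.

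Some barcodes also had many UMIs of other classes' genes. A member was set apart when genes marking neutrophils, eosinophils, monocytes and macrophages, or antigen presentation reached 50 per 10000 UMIs, a limit chosen after the values were seen. This held for 7 DMSO and 13 DAB members. Neutrophil genes led in 4 of these in DMSO and in 8 in DAB. The set-apart barcodes had medians of 13745 UMIs (DMSO) and 20118 UMIs (DAB) against 6963 and 8451 in the remaining members, while the 3 led by eosinophil genes, with 2716 and 3524 UMIs in DMSO and 6823 UMIs in DAB, lay under those medians and were not scored as doublets. Simulated-doublet scoring, run without regard to this limit, marked 5 DMSO and 12 DAB members, and 5 and 11 of those were among the set-apart barcodes. Marked barcodes were kept in the values below unless stated otherwise. The total counts of called genes, many list counts and many of the gene ratios are also given without the set-apart barcodes, which leaves 49 DMSO and 65 DAB members.

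**Figure D2:**
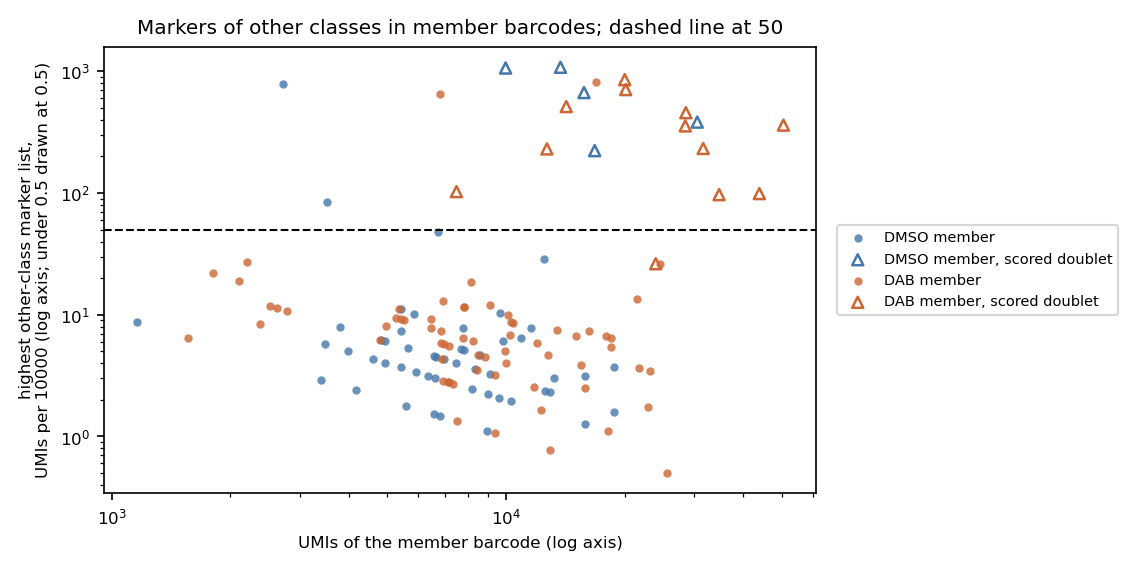
Each point is 1 member barcode, with its UMIs on the x axis (log) and its highest marker list of another class, in UMIs per 10000, on the y axis (log). Open triangles are scored doublets. Below the dashed line at 50 lie 49 DMSO and 65 DAB members, and the scored doublets, but for 1 in DAB, lie above it.

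Eosinophil genes lay mostly in single barcodes. In DMSO members the eosinophil list summed to 532 CPM, with 82.4% of its 261 UMIs in 1 barcode, and in DAB members to 475 CPM, with 95.9% of its 468 UMIs in 1 barcode. Without the set-apart barcodes the sums were 25.2 CPM and 13.5 CPM. The most abundant gene was Prg2, a granule protein gene, and Ear1 and Il5ra had no UMI in either library. Neutrophil genes, with 8328 CPM in DMSO and 10220 CPM in DAB members, came to 229 CPM and 383 CPM without those barcodes. In the full pools S100a9 led in DMSO and S100a8 in DAB, both alarmin genes of neutrophils.

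Monocyte and macrophage genes summed to 2754 CPM in DMSO, led by Spp1, and 1347 CPM in DAB, and to 340 CPM and 517 CPM without the set-apart barcodes. The antigen presentation genes summed to 245 CPM in DMSO, led by H2-Ab1, and 1546 CPM in DAB, led by Cd74, and to 239 CPM and 211 CPM without them. B cell genes had 3 UMIs in DMSO and 4 in DAB members, and T, NK and innate lymphoid genes 26 and 20 UMIs, of which Nkg7 gave 25 and 16. Erythroid and megakaryocyte genes came to 89.7 CPM and 159 CPM, of which Itga2b, an integrin gene, gave 41 of 44 and 154 of 157 UMIs, with Klf1 and Car1 at 0. Early progenitor genes came to 49.0 CPM and 121 CPM, led by Meis1, with Flt3 and Mecom at 0.

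DMSO had 0.582% of its barcodes in the gate (0.440 to 0.755) and DAB 0.683% (0.541 to 0.852). The log2 ratio of the shares was 0.23, with a counting interval from -0.28 to 0.75 that holds 0, so a difference in abundance was not detectable at this depth. Without the set-apart barcodes the log2 ratio was 0.16. Of the barcode sequences, 152 occurred in both libraries, and no barcode was a member in both. The part of set-apart barcodes in the results below was measured by leaving them out, and the part of depth was not tested.

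Summed over the 2 rule genes, the members ranged from 20.1 to 574 per 10000 UMIs in DMSO, with a median of 151, and from 22.4 to 615 in DAB, with a median of 145. Just outside the threshold, between 10 and 20 per 10000, lay 1 DMSO barcode, at 11.3, and 8 DAB barcodes, from 10.2 to 18.9. Those 8 had between 26.9 and 107 per 10000 UMIs of the other basophil list genes, and the 5 lowest DAB members, at 22.4 to 28.3, had between 16.8 and 140, so the 2 ranges overlap. Free RNA of the rule genes was scarce: 0.481% of the other DMSO barcodes and 1.75% of the other DAB barcodes had at least 1 Mcpt8 or Prss34 UMI. Among barcodes gated on the B cell genes Cd79a and Cd79b, which should lack them, 0 of 138 did in DMSO, which allows a share of up to 2.17% by 3 counts of the total and 2.64% by the exact interval, and 2 of 195 in DAB, at median depths of 4166.5 and 5500 UMIs.

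**Figure D3:**
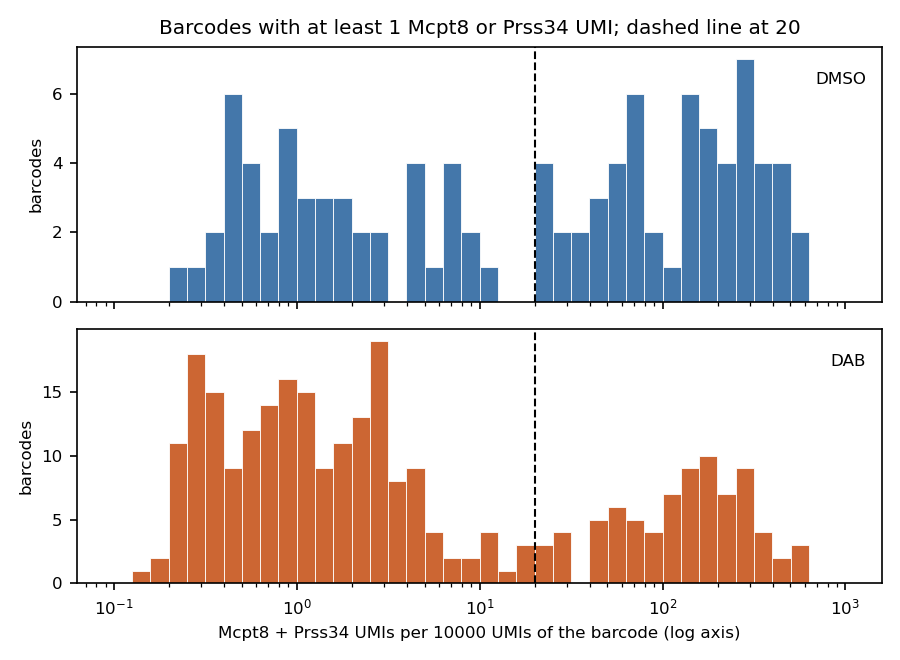
Number of barcodes (y axis) by Mcpt8 and Prss34 UMIs per 10000 UMIs (x axis, log) for the barcodes with at least 1 such UMI, DMSO above and DAB below, with the threshold of 20 dashed. DMSO has no barcode from 15 to 20, and DAB has 4.

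The levels of the 2 proteases are a description only, because the rule picked the members on the sum of these genes. Prss34 had 14908 CPM in DMSO and 12351 CPM in DAB members, and Mcpt8 had 5350 CPM and 3626 CPM. Mcpt8 made up 26.4% of their pooled UMIs in DMSO and 22.7% in DAB. Prss34 exceeded Mcpt8 in 45 of 56 DMSO and 68 of 78 DAB members. The rank correlation of the 2 genes across all members, set-apart barcodes included, was 0.73 over 56 DMSO barcodes and 0.28 over 78 DAB barcodes. Members share a library and a depth and were picked on the sum of these genes, so this is a description with no test. DMSO and DAB pools differed by less than 2-fold in both genes, at log2 ratios of -0.56 for Mcpt8 and -0.27 for Prss34, and without the set-apart barcodes by -0.29 and 0.15.

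Genes that stood furthest above the other barcodes were ranked by the lower fold of the 2 libraries, over 3466 genes with at least 20 UMIs in members of each library, of which 140 (4.04%) were at least 4-fold higher in both. Besides Fcer1a, Ms4a2 and Cpa3, the top 20 held Rnase12, Gata1, Csrp3, Igfbp7, St6galnac5, F2r, Il1rl1, Npl, Slc18a2, Inpp4b, Angpt1, Slc22a3, I730030J21Rik, Cd226, Ctsg, Il4 and Rab38. Gata1, the erythroid, mast cell and basophil factor, had 42.8 CPM in DMSO and 41.6 CPM in DAB members, 1136-fold and 152-fold above the other barcodes. Il1rl1, the IL-33 receptor, had 155 CPM and 191 CPM, 105-fold and 70.1-fold higher. Slc18a2, the transporter that loads histamine into granules, had 106 CPM and 109 CPM. Angpt1, a vascular growth factor, had 59.2 CPM and 56.9 CPM, found in 12 of 56 and 21 of 78 members. Of the Angpt1 UMIs in DMSO, 48.3% came from 1 member, and 21.4% of those in DAB.

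The other barcodes of DAB held more basophil gene RNA than those of DMSO. Barcodes with UMIs of both Cd200r3 and Il2ra but under the rule threshold numbered 151 of 9621 in DMSO and 710 of 11414 in DAB. At least 1 UMI of each gene was asked for, and the median depths of this pool were 21450 UMIs in DMSO and 27203.5 UMIs in DAB. All barcodes outside the members had 8340 and 10595 UMIs, and the part of depth in these numbers was not tested. That pool had 24.9 CPM of Cpa3 in DMSO and 124 CPM in DAB, 58.4 CPM and 297 CPM of Hdc, and 173 CPM and 167 CPM of Gata2. Members were above it in all 3 genes. Il2ra had 2.04 CPM in DMSO and 30.5 CPM in DAB members, and its level in that pool was fixed by the gate. Mcpt8 had 2.05 CPM and 3.36 CPM there.

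Members differed from one another in proliferation genes and in granule genes. The following uses the 49 DMSO and 65 DAB members without other classes, at CPM that leave out the 2 rule genes. Of these, 10 DMSO and 13 DAB members had 25 or more UMIs of the 26 proliferation genes per 10000, a range and not a cell type, with 2 and 5 members between 15 and 35. Hdc was lower in the high range, with 1094 CPM (912 to 1301) against 2225 CPM (2051 to 2409) in DMSO and 846 CPM (718 to 991) against 2642 CPM (2497 to 2793) in DAB. Csf2rb, the shared receptor chain for IL-3, IL-5 and GM-CSF, had 241 CPM against 600 CPM in DMSO and 257 CPM against 614 CPM in DAB. The chemokine gene Ccl3 had 620 CPM against 1369 CPM in DMSO and 202 CPM against 714 CPM in DAB. For all 3 genes the counting intervals of the ranges were apart in each library. Their part with depth, whose medians were 12084 against 6648 UMIs in DMSO and 15875 against 7824.5 UMIs in DAB, was not tested.

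Ctsg, a cathepsin of promyelocyte granules, was higher there, with 2058 CPM in the high range against 1442 CPM in DMSO and 3855 CPM against 1398 CPM in DAB. Over the 5 granulocyte progenitor genes the sums were 2549 CPM against 1778 CPM in DMSO and 4319 CPM against 1578 CPM in DAB, and Ctsg gave 239 of 296 and 706 of 791 UMIs of the high range. The same 5 genes were also ordered by the rule level, from 564 CPM in the 21 DMSO members under 100 per 10000 to 1741 CPM in the 9 up to 200 and 3418 CPM in the 19 above. In DAB the 3 sums were 540, 2454 and 3115 CPM, over 18, 22 and 25 members, with 62 of 70, 563 of 634 and 741 of 832 UMIs from Ctsg. Cd34, a progenitor surface marker, had 0 UMIs in the high range against 2 in the rest in DMSO, and 27.3 CPM (8.86 to 63.7) against 63.6 CPM (42.9 to 90.7) in DAB, where the intervals overlap.

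The proliferation shares of the libraries had overlapping intervals. After thinning every barcode to 1000 UMIs, 57.1% of DMSO members (43.2 to 70.3) and 50.0% of DAB members (38.5 to 61.5) had at least 1 UMI of the list, against 49.3% and 42.7% of the other barcodes. With no limit on mitochondrial UMIs the thinned shares were 57.1% of 56 DMSO and 58.2% of 79 DAB members, so their order was not stable. Thinning is a random draw, and the added DAB barcode changed the draws of barcodes after it. More of the shift lies in the redraw than 1 added barcode can give, and the intervals leave out the spread between draws. Without thinning, the shares were 96.4% and 94.9%. At least 25 per 10000 was reached by 21.4% of DMSO members (11.6 to 34.4) and 21.8% of DAB members (13.2 to 32.6), against 10.8% and 8.75% of the other barcodes. Mki67 had 247 CPM in DMSO and 169 CPM in DAB members, and Top2a 245 CPM and 187 CPM. Over the 26 genes the median log2 ratio of DAB over DMSO was -0.03, with 13 above and 13 below 0.

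For DAB against DMSO within the members, a gene was called when its CPM differed at least 2-fold and the exact interval of the ratio left out 0 on the log2 scale. Of 4031 genes with at least 50 UMIs over the members of both libraries, 291 (7.22%) were called higher in DAB and 183 (4.54%) lower, 11.8% in all. In the other barcodes, 3.13% of the same genes were called higher and 1.46% lower, 4.59% in all. The gap depended on the minimum: with at least 200 UMIs, 52 genes were called higher and 25 lower in members. Over the same tested genes, 40 and 20 were called in the other barcodes. The number of genes at that minimum is not given here, so these are counts and not shares. Without the set-apart barcodes the member shares were 6.48% and 4.31% of the 3087 genes that still had at least 50 UMIs. With no UMI minimum in that smaller pool, 217 of the 291 and 127 of the 183 were still called in that direction. Lists are counted over genes with at least 20 UMIs, and of the 6878 genes on that base 7.1% were called higher and 5.58% lower in members, 3.0% and 1.7% in the other barcodes, and 6.85% and 5.3% of 5853 in members without the set-apart barcodes. Of the 26 proliferation genes 3 were called higher and 1 lower, and 2 and none without the set-apart barcodes. The median log2 ratio over all 4031 genes was -0.01.

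Among the 8 basophil list genes that the rule did not use, Cpa3 and Grm6 were called higher in DAB and none was called lower, beside 7.1% and 5.58% of the 6878 genes. Cpa3 went from 581 CPM in DMSO to 1327 CPM in DAB, with intervals of 516 to 653 CPM and 1256 to 1401 CPM and a log2 ratio of 1.19, and its median over members went from 2.14 to 9.54 per 10000 UMIs. It was detected in 35 of 56 and 72 of 78 members. Grm6 had a log2 ratio of 2.50 (1.68 to 3.45), with 13 and 148 UMIs in 7 and 39 members. Left out of the pool, the set-apart barcodes changed these to 1.51 and 2.58. In the B cell gate 0 of 138 DMSO and 1 of 195 DAB barcodes had a Cpa3 UMI, and 1 and 5 had a Grm6 UMI.

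The remaining list genes were within 2-fold. Gata2 and Cyp11a1 were at log2 ratios of -0.64 (-0.80 to -0.49) and -0.52 (-0.65 to -0.39), Hdc at -0.04 (-0.16 to 0.08), and Ms4a2 at 0.14 (-0.16 to 0.45). Fcer1a had 0.78 (0.32 to 1.26) and Cd200r3 0.48 (0.28 to 0.69). Over the 8 list genes that the rule did not use, the median log2 ratio was 0.31 in members, 0.54 in members without the set-apart barcodes and 2.81 in the other barcodes, where all 8 were called higher in DAB. Gata2, Cyp11a1 and Hdc had -0.44, -0.33 and 0.18 without the set-apart barcodes. The 2 pools share their libraries, and the difference between them was not tested.

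Of 18 genes of the IgE receptor pathway, from the receptor chains to kinases and adaptors, 13 were above 0, 1 was called lower and none higher, with a median of 0.22, while 7.1% of the 6878 genes were called higher and 5.58% lower. Fcer1g, the signalling chain shared with Fc receptors, had 1838 CPM in DMSO and 2103 CPM in DAB. Lat, the adaptor of the receptor complex, had 81.6 CPM and 127 CPM, while Lat2, a related adaptor, had 696 CPM and 442 CPM. The called gene was Plcg1, a phospholipase, with 53.0 CPM and 26.4 CPM, a log2 ratio of -1.01 (-1.85 to -0.16) that rests on 26 UMIs in each library, and it was not called without the set-apart barcodes. Among 7 genes for histamine and lipid mediators, Ptgs1, a cyclooxygenase, was called higher, at 3 and 37 UMIs, of which 56.8% in DAB came from 1 member, and it was not called without the set-apart barcodes. Alox5ap, the partner of 5-lipoxygenase, had 1383 CPM in DMSO and 2035 CPM in DAB, giving a log2 ratio of 0.56.

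Cytokine and chemokine genes had a median log2 ratio of 0.86 over 13 genes, with 4 called higher and 1 lower, beside 7.1% and 5.58% of the 6878 genes. In the other barcodes their median was 0.61. Without the set-apart barcodes 5 of the 13 were called higher and 1 lower, beside 6.85% and 5.3% of 5853 genes. Il6 had 61.2 CPM in DMSO (13 of 56 members) and 130 CPM in DAB (36 of 78 members), a log2 ratio of 1.09 (0.50 to 1.71). Ccl4 had 83.6 CPM and 328 CPM, a log2 ratio of 1.97, but 57.3% of its DAB UMIs came from 1 member and the value without the set-apart barcodes was 1.01. Tnf and Lif were also called higher, each from 4 UMIs in DMSO, and Lif was not called without the set-apart barcodes. Ccl3 was the gene called lower, with 1057 CPM in DMSO and 506 CPM in DAB, giving a log2 ratio of -1.06 (-1.24 to -0.88), and it had -1.01 without the set-apart barcodes and 0.38 in the other barcodes. A Ccl4 UMI was present in 14 of 56 DMSO and 20 of 78 DAB members, and in 7.25% and 8.72% of the B cell gate.

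Il4, the cytokine most tied to basophils, was not called, with 122 CPM in DMSO and 111 CPM in DAB, giving a log2 ratio of -0.15 (-0.61 to 0.33), in 32 of 56 and 53 of 78 members. Il13 had 3 and 2 UMIs. Ccl6 was the most abundant chemokine gene, with 4824 CPM and 9115 CPM, a log2 ratio of 0.92 that was just under the call, and it passed it at 1.05 without the set-apart barcodes. Hgf, hepatocyte growth factor, had 461 CPM and 669 CPM in members, and 14.2 CPM and 25.2 CPM in the other barcodes.

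Of 18 receptor genes for cytokines and chemoattractants, 6 were called higher in DAB and none lower, and 5 and none without the set-apart barcodes, while 7.1% of the 6878 genes were called higher and 5.58% lower. Cxcr2, a receptor for CXC chemokines, went from 73.4 CPM in 17 of 56 members to 225 CPM in 69 of 78, a log2 ratio of 1.62 (1.11 to 2.17), against -0.15 in the other barcodes. C5ar1, the receptor for complement C5a, went from 10.2 CPM in 4 members to 74.1 CPM in 30, a log2 ratio of 2.86 (1.57 to 4.53). Of the B cell gate, 4.35% of DMSO and 8.21% of DAB barcodes had a Cxcr2 UMI, and 5.07% and 7.69% a C5ar1 UMI. The DMSO share of 7.14% for C5ar1 was thus close to that of the gate, and how much of the gate's share is free RNA was not tested. Csf2ra, Il7r, Il2ra and Ifngr1 were the other 4, and Csf2ra was not called without the set-apart barcodes. Il3ra, the IL-3 receptor chain, had 218 CPM and 212 CPM, and Csf2rb had 638 CPM and 591 CPM.

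Surface molecules had a median log2 ratio of 0.53 over 15 genes, with Itga2, Pilra and Spn called higher and none lower, beside 7.1% and 5.58% of the 6878 genes. Without the set-apart barcodes 4 of 14 were called higher and none lower, beside 6.85% and 5.3% of 5853 genes. Itga2, the CD49b integrin chain, had 3 UMIs in DMSO and 36 in DAB. Spn, the sialophorin CD43, had 65.3 CPM and 148 CPM. The activation marker Cd63 had 1342 CPM and 1398 CPM, and Cd69 171 CPM and 127 CPM. Among 10 granule and protease genes, Cpa3 alone was called, 1 of 10, and Srgn, the proteoglycan that packs granule proteases, had 5746 CPM and 4222 CPM.

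Transcription factor genes had a median of -0.40 over 21 genes, 13 of them below 0, and a median of -0.18 without the set-apart barcodes. Stat5a and Stat5b, which carry signals of IL-3 and GM-CSF, were the 2 called, both lower, beside 5.58% of the 6878 genes, and without the set-apart barcodes these 2 were called lower and Cebpa and Mafg higher, at 1.04 and 1.07. Stat5a had 110 CPM in DMSO and 35.5 CPM in DAB, giving a log2 ratio of -1.63 (-2.29 to -0.99), and Stat5b 188 CPM and 87.3 CPM, a log2 ratio of -1.10 (-1.54 to -0.66). STAT5 target genes had a median of 0.33 over 10 genes, with Socs3 called higher and Pim2 called lower, 1 of 10 each beside 7.1% and 5.58%. Cebpa had 110 CPM and 213 CPM, a log2 ratio of 0.95.

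The amino acid response genes, targets of ATF4 downstream of the kinase GCN2, had a median log2 ratio of 0.62 in members over 31 genes, of which 9 were called higher and 2 lower, beside 7.1% and 5.58% of the 6878 genes. In the other barcodes the same 31 genes had a median of 1.48, with 22 called higher and none lower, beside 3.0% and 1.7%. Without the set-apart barcodes 10 of 29 were called higher in members and 2 lower, beside 6.85% and 5.3% of 5853 genes. Asns, asparagine synthetase, had 40.8 CPM in DMSO and 83.3 CPM in DAB members, a log2 ratio of 1.03 (0.31 to 1.81), against 2.31 in the other barcodes. Phgdh, the first enzyme of serine synthesis, had 30.6 CPM and 111 CPM, a log2 ratio of 1.85 (1.07 to 2.74), and 1.03 without the set-apart barcodes. Psat1 and Psph, the next enzymes of that path, had log2 ratios of 1.32 and 2.64. Slc7a5, a neutral amino acid carrier, had 214 CPM and 444 CPM, Slc7a11, the cystine carrier, 36.7 CPM and 92.4 CPM, Atf5 26.5 CPM and 119 CPM, and Stc2 16.3 CPM and 144 CPM. Cth, which makes cysteine from cystathionine, had 0 UMIs in DMSO and 39 in DAB, giving a log2 ratio of at least 2.69 against a floor of 3 UMIs over the DMSO pool, with an exact lower limit of 2.33.

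The 2 genes of the list called lower were Ddit3 and Ddit4. Ddit3, which encodes CHOP, was lower, with 228 CPM in DMSO and 80.2 CPM in DAB, giving a log2 ratio of -1.51 (-1.94 to -1.08), against 0.68 in the other barcodes. Ddit4, an inhibitor of mTORC1, had 720 CPM and 311 CPM, a log2 ratio of -1.21. Trib3, a pseudokinase induced by ATF4 and CHOP, was not called, with 77.5 CPM and 76.2 CPM, a log2 ratio of -0.03 (-0.61 to 0.58), against 2.62 in the other barcodes. Atf4 itself had 265 CPM and 248 CPM. Asns was higher in the members high in proliferation genes, with 112 CPM against 7.32 CPM in DMSO and 240 CPM against 23.3 CPM in DAB, the high range being 10 of 49 and 13 of 65 members. The DMSO value of that range, 112 CPM (59.6 to 191), rests on 13 UMIs in 4 members. An Asns UMI was present in 12.5% of all DMSO members and 34.6% of all DAB members, against 8.70% and 12.3% of the B cell gate. The DMSO share was thus close to that of the gate, whose median depth was lower, at 4166.5 and 5500 UMIs. How much of the gate's share is free RNA was not tested. Trib3 had 198 CPM against 36.6 CPM in DMSO and 98.3 CPM against 61.4 CPM in DAB. Its 198 CPM (126 to 297) rests on 23 UMIs in 5 members.

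**Figure D4:**
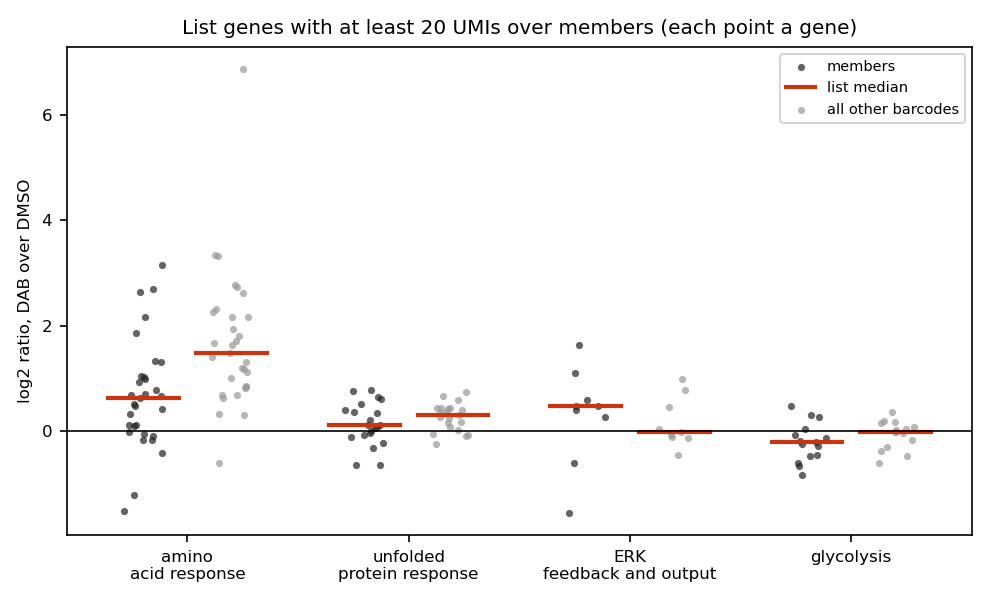
Log2 ratio of DAB over DMSO (y axis) for genes of 4 lists with at least 20 UMIs over members, each point a gene, in members (black) and in all other barcodes (grey), with list medians as red bars. The amino acid response bars stand at 0.62 and 1.48, those of the unfolded protein response at 0.11 and 0.30, and Cth in members is drawn at its lower bound.

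Unfolded protein response genes, 21 in all, had a median of 0.11 in members and none was called. Hspa5, the main chaperone of the endoplasmic reticulum, had 581 CPM in DMSO and 569 CPM in DAB. Of 9 ERK feedback and output genes, Dusp6, the phosphatase that dampens ERK, was called higher, with 32.6 CPM in 10 of 56 members and 102 CPM in 46 of 78, a log2 ratio of 1.64 (0.87 to 2.50), which was 2.44 without the set-apart barcodes and 0.99 in the other barcodes. A Dusp6 UMI was also present in 3.62% of DMSO and 11.8% of DAB barcodes of the B cell gate. Egr1, an immediate early gene, was called lower, with 304 CPM and 104 CPM, a log2 ratio of -1.55, though 27.5% of its DMSO UMIs came from 1 member. Fos and Jun were also called lower among 8 AP-1 and immediate early genes, whose median was -0.75 in members and -0.49 in the other barcodes. With Egr1, which is on both lists, 3 of these 8 genes were called lower, and of the 9 ERK genes 1 was called higher and 1 lower, beside 7.1% and 5.58% of the 6878 genes. Jun lost its call without the set-apart barcodes.

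Mitochondrially encoded transcripts had a median log2 ratio of 0.71 over 13 genes, and mt-Cytb, mt-Nd4l, mt-Co3 and mt-Atp8 were called higher, 4 of 13 beside 7.1% of the 6878 genes, against a median of 0.10 and no call in the other barcodes. The most abundant, mt-Co1, had 3190 CPM in DMSO and 2945 CPM in DAB. Mitochondrial UMIs were a median of 0.431% of a DMSO member and 0.703% of a DAB member, and 1.01% and 1.04% of the other barcodes. Nuclear oxidative phosphorylation genes had a median of 0.19 over 73 genes, with 5 called higher and 1, Cox6b2, lower, beside 7.1% and 5.58% of the 6878 genes. Among the 5 was Cox6a2, the muscle isoform of a cytochrome oxidase subunit, at 3 and 83 UMIs and a log2 ratio of 3.78, which was 2.99 without the set-apart barcodes. Without those barcodes 72 of the genes kept at least 20 UMIs, with 5 called higher and none lower, and Cox6b2 fell under that minimum. Glycolysis genes had a median of -0.21 over 15 genes with none called, and Gpi1, glucose phosphate isomerase, had 4149 CPM and 2327 CPM and Aldoa, aldolase, 7812 CPM and 5107 CPM. The 79 cytosolic ribosomal protein genes had a median of 0.06 and none was called.

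Of the 10 genes with the highest ratios of DAB over DMSO, 4 were still called without the set-apart barcodes: Cstdc5, Stfa3, Mgl2 and Cdh17. This ranking put genes with 0 UMIs in DMSO first, as infinite ratios. Against a floor of 3 UMIs, S100a4, Mgl2 and Stfa3 came to 3.54, 3.60 and 3.62. These lay under Asb2 at 3.97 and Ly6c2 at 3.81, and under Cox6a2 as well, none of which was among the 10. Cstdc5, Stfa1, Stfa2 and Stfa3, stefin A genes of one cluster on chromosome 16 that are near copies of each other and whose UMIs are uncertain for that reason, had no UMI in DMSO members and 418, 203, 239 and 74 UMIs in DAB, 47.4% to 77.3% of them in 1 member. The related Csta2, the class II genes H2-Aa and H2-Eb1, S100a4 and Mgl2 were also among the 10. Of the 10, Cdh17, a cadherin gene, had 2 UMIs in DMSO and 99 UMIs in DAB with 21.2% in its top member, and a log2 ratio of 4.62 (2.73 to 7.69), which was 4.27 without the set-apart barcodes and 3.39 in the other barcodes. Without those barcodes the exact lower limits of the log2 ratio were 2.42 for Cstdc5, 0.86 for Stfa3 and 0.23 for Mgl2, all with 0 UMIs in DMSO, so the limits of Stfa3 and Mgl2 lay under 2-fold. With scored doublets left out, Cstdc5, still with 0 UMIs in DMSO, had too few in DAB to be called, and Mgl2 and Stfa3 had no more than 3 UMIs in either library, while Stfa2 and Csta2 were still called.

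Among the 10 lowest ratios were Gpnmb and Epx, with 100% and 98.8% of their DMSO UMIs in 1 member. Tfrc, the transferrin receptor, had 79.5 CPM in DMSO and 15.2 CPM in DAB, giving a log2 ratio of -2.38 (-3.35 to -1.49). Rcn3, a calcium-binding protein gene of the endoplasmic reticulum, had 220 CPM and 48.7 CPM, and C1qtnf12, a secreted C1q-like factor, 249 CPM and 57.9 CPM. Per1, a circadian clock gene, had 77.5 CPM and 18.3 CPM, Snx25 85.7 CPM and 18.3 CPM, Primpol 71.4 CPM and 16.2 CPM, Map1lc3a 133 CPM and 33.5 CPM, and Tceal9 126 CPM and 32.5 CPM. The 8 genes other than Gpnmb and Epx were still called lower without the set-apart barcodes, and Rcn3, C1qtnf12 and Per1 were called lower in the other barcodes too.

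A ranking without the set-apart barcodes was made after the values had been seen, and it kept Cdh17 among the 10 highest ratios and C1qtnf12, Snx25, Tceal9, Map1lc3a and Rcn3 among the 10 lowest. Ly6c2, a Ly6 surface protein gene, had 0 UMIs in 49 DMSO members and 81 in 65 DAB members. Asb2, a ubiquitin ligase subunit, had 17.6 CPM in DMSO and 271 CPM in DAB, giving a log2 ratio of 3.94 (2.87 to 5.28). Cfp, properdin of the complement system, had 30.2 CPM and 254 CPM, and Adora3, the adenosine A3 receptor known from mast cell activation, 7.55 CPM and 89.7 CPM. Lower in DAB were Hmox1, heme oxygenase, at 370 CPM and 85.2 CPM, and the long noncoding RNA Neat1, at 1060 CPM and 333 CPM, both also called lower in the other barcodes.

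Of 5 granulocyte progenitor genes, 1 was called lower and 1 higher, beside 5.58% and 7.1% of the 6878 genes, with a median of 0.40, and without the set-apart barcodes 2 were called lower, Mpo and Prtn3, and none higher, with a median of -0.41 over 4 genes. Mpo, myeloperoxidase, was called lower in DAB, with 249 CPM in DMSO and 74.1 CPM in DAB, giving a log2 ratio of -1.75 (-2.19 to -1.32), and -1.18 without the set-apart barcodes. Ctsg, from the same granules, had 1607 CPM and 1546 CPM, a log2 ratio of -0.06. Elane was called higher, but 96.6% of its 87 DAB UMIs were in 1 member, and without the set-apart barcodes its ratio was -1.75 and not called.

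**Figure D5:**
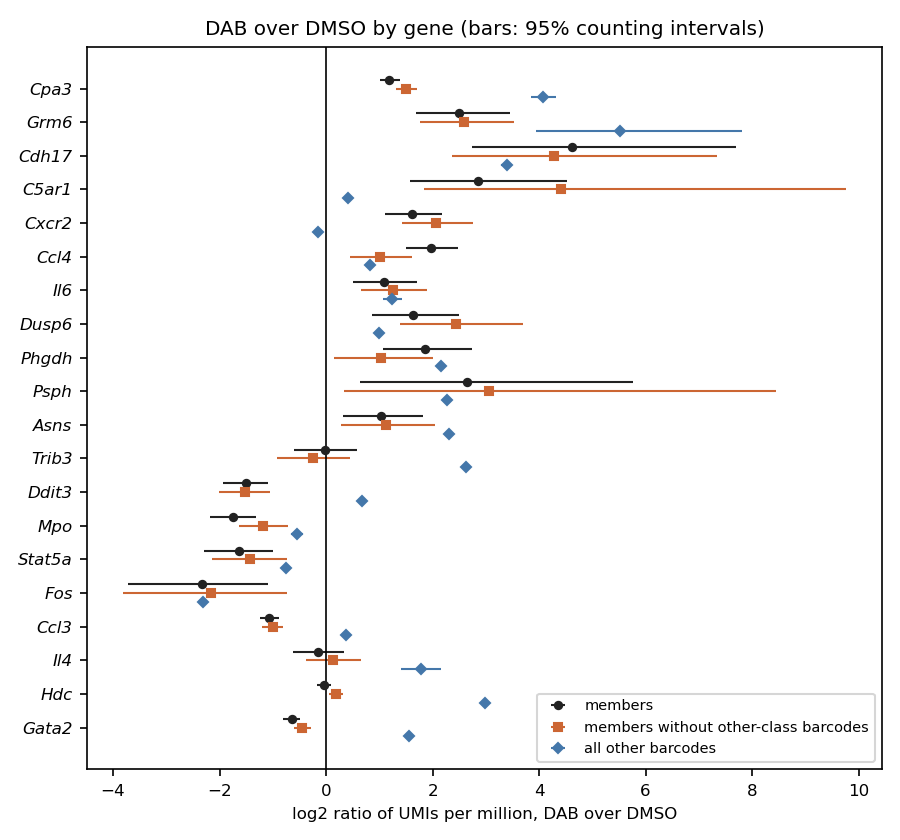
Log2 ratio of CPM, DAB over DMSO (x axis), with 95% counting intervals for 20 genes chosen after their values were seen, in members (black circles), in members without the set-apart barcodes (orange squares) and in all other barcodes (blue diamonds). Trib3, Hdc and Il4 lie near 0 in members and at 2.62, 2.98 and 1.78 in the other barcodes, while Cxcr2 stands at 1.62 in members and -0.15 elsewhere.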

How the data were processed

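The deposited values were raw UMI counts per gene and barcode, and per the labels the authors counted with Cell Ranger 7.0.0 against mm10. Barcodes over the paper's limit of 10% mitochondrial reads were still in them. Few barcodes had under 1000 UMIs, so the files did not hold all droplets. The files held 9855 DMSO and 11631 DAB barcodes. Left out were 199 and 147 barcodes with under 1000 UMIs and 35 and 70 with over 10% mitochondrial UMIs, which kept 106549146 and 165173194 UMIs.

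Members were gated on Mcpt8 and Prss34 and their counts summed per library. The members and gene lists were chosen with earlier results of these data known. Ratios are of summed counts over summed totals, with exact conditional binomial intervals. Shares have Clopper-Pearson and levels Poisson intervals, all at 95%. Limits for a count of 0 use 3 counts, which lies under the 2-sided exact limit. PCR and capture errors are outside these intervals. Medians of the 28 lists used genes with at least 20 UMIs over members. Named genes were the basophil list, the 10 largest ratios in each direction, the 20 largest folds over other barcodes, and list genes as examples. Strata and the limit for other-class markers were set after the data were seen. A doublet score from simulated pairs (2 per barcode, 2000 genes, 30 components, 50 neighbours, 0.8% per 1000 barcodes) marked likely doublets, which were kept. The ratio code was tested on simulated data. Python 3.11.15, numpy 2.4.6, scipy 1.17.1, pandas 2.3.3 and scikit-learn 1.9.0 were used. Alternatives were other thresholds, filters, scalings and gene minimums.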

Additional observations from a re-analysis of the deposited data

Results flagged for a closer look

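Of the genes called in members, 5 were called in the opposite direction in the other barcodes, and this difference between the pools was not tested. F13a1, coagulation factor XIII A chain, had a log2 ratio of DAB over DMSO of 2.77 in members (13 UMIs in DMSO and 178 in DAB) and -1.90 in the other barcodes, and 2.87 in members without the set-apart barcodes. Ets1, a transcription factor gene, had 1.32 in members (25 and 125 UMIs) and -1.04 in the other barcodes. Rab27b, a small GTPase of granule release, had -1.72 in members (59 and 36 UMIs) and 1.82 in the other barcodes.

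Mgl2, a lectin gene, had no UMI in DMSO members and 73 in DAB, a log2 ratio of at least 3.60 against a floor of 3 UMIs, with an exact lower limit of 3.26, and -1.06 in the other barcodes, with 49.3% of its UMIs in 1 member. Without the set-apart barcodes the ratio to that floor was 0.83 and the exact lower limit 0.23, and with scored doublets left out neither library had more than 3 UMIs. Epx, eosinophil peroxidase, had -2.92 in members and 2.24 in the other barcodes, its UMIs lying in 1 member of each library for 98.8% in DMSO and 100% in DAB.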

How the results depend on the processing

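The 11 main results were recomputed in 99 combinations with the alternatives, and 86 stayed within an interval or within 1.5 times the count. That interval was a counting interval for shares and, for list medians, a rank interval over the genes of the list. With no UMI minimum only the share of members changed. With at least 20 UMIs per gene, 488 of 6878 genes were called higher and 384 lower in members, and 206 and 117 in the other barcodes. With at least 200 UMIs these were 52 and 25 in members, and 40 and 20. At a threshold of 50 per 10000, 121 genes were called lower in members. The number of genes tested at 200 UMIs and at this threshold is not given here, so these counts are not shares. Without thinning, 96.4% of DMSO and 94.9% of DAB members had a UMI of the proliferation list. With thinning, at least 3 UMIs of it were found in 19.6% and 26.9%.

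Of 286 values of 30 named genes, 239 kept their value within the counting interval, 46 moved beyond it, and 1 changed sign while called: Epx had 3.46 at a threshold of 50. The total of 239 includes settings that could hardly move a value. With no UMI minimum no value changed, and all 30 stayed with no mitochondrial limit and with either other scaling. With scored doublets left out 13 stayed and 11 moved, and without members with other-class markers 12 and 12. Among the 46 that moved, Cstdc5 and S100a4, both with 0 UMIs in DMSO, lost their call with scored doublets left out, and S100a4 and Csta2, the latter at 1.12, lost it without members with other-class markers. Leaving out scored doublets gave 196 genes called higher and 140 lower in members, on a base of tested genes not given here. It gave no value, with both libraries at or under 3 UMIs, for 6 named genes. Leaving out members with other-class markers, chosen after the data were seen, gave 200 and 133 of 3087 genes, and no value for 6. The amino acid response median lay between 0.44, at 50 UMIs per list gene, and 0.77, without each gene's top member. No paired analysis was possible because each condition is 1 library. Ratios of genes with few UMIs in DMSO are wide, and nothing here measures spread between cultures.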
